A study of Mus musculus with 21 samples.

Results

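The Notch pathway genes Notch1, Notch2, Adam10, Rbpj, Dtx1, Hes1 and Nrarp, together with the adhesion molecule gene Esam, were followed across purified spleen cells of C57BL/6 mice. The 8 genes were taken by name, as every probe set (a group of short oligos that read out 1 transcript) whose only gene symbol is one of them. They are 8 of the 18193 genes with a symbol of their own on the array, with 17 probe sets, and all 8 were among the 13284 genes tested. The study hybridised 21 arrays in 7 groups of 3 to look for the surface molecule bound by the antibody 33D1, which marks CD8-negative dendritic cells (DCs). 33D1 DCs came from mice injected with Flt3L melanoma, in pools of 20 mice killed on days 10 to 12, and from wild-type (WT) mice in pools of 40 to 80. DEC205 DCs, the CD8-positive subset, came from the same kinds of mice with the same pool sizes. B cells, CD8 T cells and CD4 T cells came from pools of 5 to 8 WT mice, although their sample descriptions call them DCs. Flt3L is a growth factor that expands DCs, and it came together with the tumour in this design, so the effects of the cytokine, the tumour and the expansion cannot be told apart. Whether the arrays of a group came from separately sorted pools is not given in the labels, so the p-values cover the spread among arrays, and that spread may be partly or wholly technical.

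Notch receptors sit on the cell surface and are switched on by ligands of the Delta and Jagged families on neighbouring cells. Binding lets the protease ADAM10 and then gamma-secretase cut the receptor, and the freed intracellular part joins the DNA-binding protein RBPJ to turn on targets such as Hes1, Dtx1 and Nrarp. In the mouse spleen, Notch2 and Rbpj are known to be needed for the CD8-negative DCs that carry ESAM on their surface, which are told apart from another CD8-negative population with little ESAM.

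The arrays were checked first. The 3 DC markers Itgax, Flt3 and Zbtb46 were above the table's median signal of 156.3 on every array of all 4 DC groups, with summed signals of 20010 to 27020 in DCs, against 206.2 to 667.6 in lymphocytes. Markers of the CD8-negative subset (Sirpa, Irf4 and Itgam) summed to 10230 to 14060 in 33D1 DCs, against 133.9 to 939.8 in DEC205 DCs. A DEC205 array and a 33D1 array held transcripts of the other subset: DEC205 WT array 3 had a Sirpa signal of 665.9, against 277.3 and 230.8 on arrays 1 and 2, and 33D1 Flt3L array 3 had an Xcr1 signal of 463.3, against 101 and 100.5. For results that use these arrays, the difference or adjusted p without them is given where a call is lost or gained, and for the differences of Dtx1, Cd4 and Jag1 between the subsets. Less even signs were seen elsewhere: 33D1 WT array 2 had Cd8a at 372.2, against 129.4 and 124.7, but Xcr1 at 143.5, against 130.2 and 210. Results without the pair of mixed arrays may therefore still hold some transcripts of the other subset. Correlations between arrays of a group were 0.949 to 0.979, and no pair of arrays held identical values. Signals have no absolute unit and are compared between arrays for a given probe set, not between probe sets. The arrays share a trimmed mean of 500, but their medians ran from 121.9 to 204.4. Low signals are therefore less safely compared between arrays. In sorted bulk RNA, fewer cells of a type and less RNA per cell cannot be told apart.

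Promoters were available in RefSeq (GRCm38.p6) for 6 of the 8 genes, as 7 start sites, and not for Hes1 and Esam. The 250 bases before the start of both receptors and of the feedback inhibitor Nrarp are shown, because the brightest probe sets of the receptors ran in opposite directions between DCs and T cells and Nrarp is a textbook target of RBPJ. They lie at chr2:26503823-26504072 on the minus strand for Notch1, at chr3:98013288-98013537 on the plus strand for Notch2 and at chr2:25180508-25180757 on the plus strand for Nrarp. Each is written 5′ to 3′, and no base is in capitals because the searched motif was not in it.
Notch1: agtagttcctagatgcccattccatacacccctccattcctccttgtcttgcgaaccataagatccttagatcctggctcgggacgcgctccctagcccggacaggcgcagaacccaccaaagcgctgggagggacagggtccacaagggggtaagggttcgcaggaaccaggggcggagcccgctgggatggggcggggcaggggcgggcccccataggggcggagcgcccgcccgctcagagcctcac
Notch2: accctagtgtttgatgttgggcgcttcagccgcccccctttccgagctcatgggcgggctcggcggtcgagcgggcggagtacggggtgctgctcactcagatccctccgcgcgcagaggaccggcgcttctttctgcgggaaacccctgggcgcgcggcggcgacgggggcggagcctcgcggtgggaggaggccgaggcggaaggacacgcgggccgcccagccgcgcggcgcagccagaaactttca
Nrarp: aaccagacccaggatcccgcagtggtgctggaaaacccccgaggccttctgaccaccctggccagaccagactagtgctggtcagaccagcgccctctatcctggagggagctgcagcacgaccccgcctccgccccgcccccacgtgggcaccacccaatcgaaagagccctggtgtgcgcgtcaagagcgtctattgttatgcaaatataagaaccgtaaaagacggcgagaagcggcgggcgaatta
The RBPJ recognition motif GTGGGAA was searched on both strands over the 250 bases before and the 50 bases after each start. No other motif was searched. It was in 0 of the 7 member promoters and in 2097 of all 32851 promoters searched, which is 6.38%. That says only that these letters are not in these windows. The 250 bases were 66.0% G and C for Notch1, 72.0% for Notch2 and 61.2% for Nrarp.

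Between the DC subsets, the same 4 of the 8 genes passed the test in both kinds of mice: Dtx1 and Esam were higher in 33D1 than in DEC205 DCs, and Rbpj and Notch1 were lower. Across all 13284 genes, 23.5% passed in Flt3L mice (11.7% higher and 11.8% lower in 33D1 DCs) and 23.1% in WT mice (11.3% higher and 11.8% lower). The test was limma on log2 of the signal plus 48.6, with Benjamini-Hochberg adjustment over all genes and a call at an adjusted p under 0.05. Differences are on that log2 scale with their standard error (SE), and they understate changes of low signals. Notch2, Hes1, Nrarp and Adam10 did not pass in either kind of mouse. The median difference of the 8 genes was 0.18 in Flt3L mice, against 0.04 over all genes, and 0.17 in WT mice, against 0.04. All 4 calls were made again in both kinds of mice without the pair of arrays that held transcripts of the other subset.

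**Figure D1:**
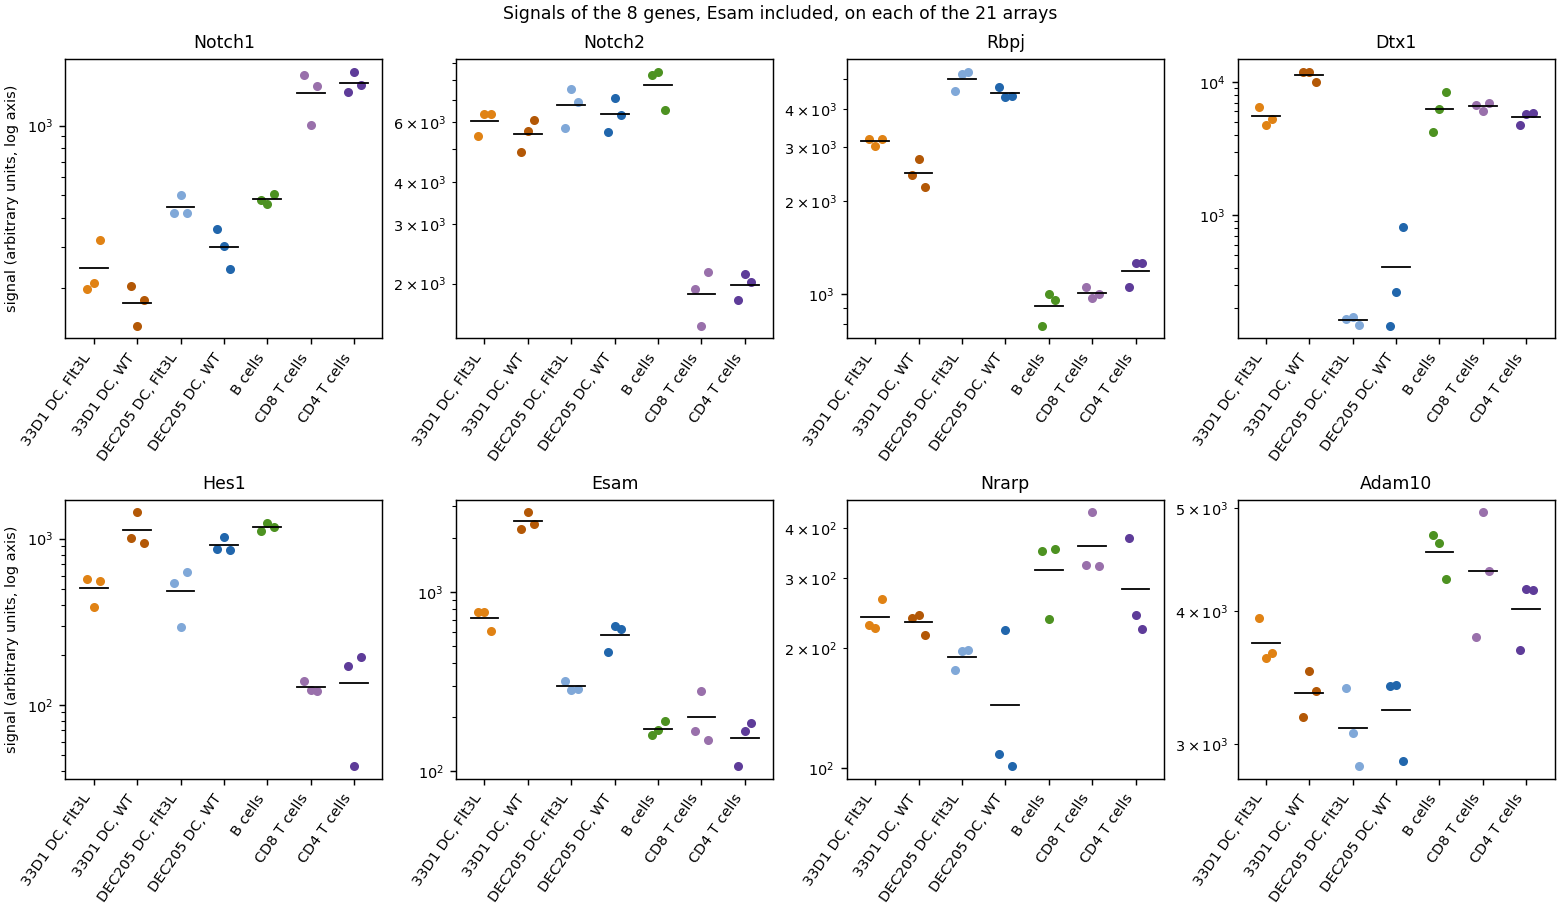
Signal of each of the 8 genes (arbitrary units, log axis) on the 21 arrays, by group; points are arrays and lines are group means of 3. Dtx1 lies far lower in both DEC205 groups than elsewhere, Esam is highest in 33D1 DCs of WT mice, and Notch1 and Notch2 run in opposite directions between DCs and T cells.

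Notch2, the receptor that splenic CD8-negative DCs are known to need, had overlapping signals in both subsets. In Flt3L mice it read 5450.8, 6330.2 and 6344.1 on the 3 arrays of 33D1 DCs, against 5766.7, 7517.1 and 6877.2 in DEC205 DCs. In WT mice it read 4909.7, 5645.0 and 6069.9 in 33D1 DCs, against 5610.0, 7074.6 and 6313.2 in DEC205 DCs. The arrays of the subsets overlapped in both kinds of mice. The differences were -0.15 ± 0.14 in Flt3L mice (95% interval -0.45 to 0.16) and -0.19 ± 0.14 in WT mice (95% interval -0.50 to 0.12), with limma adjusted p of 0.537 and 0.413. The second Notch2 probe set lay at 175.9 to 364.4 over all arrays and did not pass either, with differences of -0.02 and 0.03.

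Notch1, the receptor best known for T cell development, was lower in 33D1 than in DEC205 DCs. In Flt3L mice it read 198.0, 210.6 and 321.4 in 33D1 DCs, against 418.3, 501.5 and 419.9 in DEC205 DCs. In WT mice it read 203.4, 137.4 and 176.6 in 33D1 DCs, against 359.7, 302.4 and 242.0 in DEC205 DCs. All 33D1 arrays lay below all DEC205 arrays in each case, and the signals of 33D1 DCs were close to the table's median. The differences were -0.78 ± 0.19 in Flt3L mice (limma adjusted p = 0.00411) and -0.66 ± 0.19 in WT mice (limma adjusted p = 0.0145). The WT call was lost without 33D1 WT array 2 (-0.54, adjusted p = 0.0852), without DEC205 WT array 1 (-0.54, adjusted p = 0.0858), and in a fit of these groups alone (adjusted p = 0.0568). The second Notch1 probe set was lower in Flt3L mice (-1.47 ± 0.40, adjusted p = 0.00941) and did not pass in WT mice (-0.64 ± 0.40, adjusted p = 0.316).

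Adam10, which encodes the protease that makes the first cut of a bound receptor, lay between 2860 and 4956 over all 21 arrays. It averaged 3738 ± 180 in 33D1 DCs and 3107 ± 264 in DEC205 DCs of Flt3L mice (SD, n = 3 each), a difference of 0.27 ± 0.11 (limma adjusted p = 0.0836), with all 33D1 arrays above, which passed with quantile normalisation (0.30, adjusted p = 0.0396). In WT mice it averaged 3353 ± 167 in 33D1 DCs and 3234 ± 295 in DEC205 DCs, with overlapping arrays (0.05 ± 0.11, adjusted p = 0.811). Its other tested probe sets gave differences of -0.08 and -0.26 in Flt3L mice and 0.24 and 0.40 in WT mice, none of them past the threshold, and so did not share a sign with the brightest one in Flt3L mice.

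Rbpj, which encodes the DNA-binding partner of the cut receptor, was lower in 33D1 than in DEC205 DCs. Rbpj in Flt3L mice read 3200.6, 3027.7 and 3195.5 in 33D1 DCs, against 4572.3, 5188.0 and 5282.1 in DEC205 DCs. Rbpj in WT mice read 2435.9, 2753.9 and 2234.6 in 33D1 DCs, against 4704.4, 4379.6 and 4394.2 in DEC205 DCs. The groups did not overlap. The differences were -0.66 ± 0.11 in Flt3L mice (limma adjusted p = 7e-05) and -0.85 ± 0.11 in WT mice (limma adjusted p = 2.77e-06). All 3 Rbpj probe sets were lower in 33D1 DCs in both kinds of mice, the other 2 by -0.98 and -1.01 in Flt3L mice and by -0.85 and -0.45 in WT mice, each past the threshold over probe sets.

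Dtx1, which encodes the ubiquitin ligase Deltex and is itself a Notch target, had the largest subset difference of the 8 genes. In Flt3L mice it read 6503.2, 4781.3 and 5271.6 in 33D1 DCs, against 165.1, 172.4 and 150.2 in DEC205 DCs. In WT mice it read 11842.1, 11911.6 and 9991.5 in 33D1 DCs, against 147.9, 265.4 and 814.5 in DEC205 DCs. The highest DEC205 value was on WT array 3, which also held Sirpa and Cd4 signals of 665.9 and 400, and the part of 33D1 DCs in the Dtx1 value was not tested. The differences were 4.71 ± 0.32 in Flt3L mice (limma adjusted p = 2.24e-10) and 4.90 ± 0.32 in WT mice (limma adjusted p = 1.43e-10). Mean signals were 33.9 times as high in Flt3L mice and 27.5 times as high in WT mice. Without the pair of mixed arrays the Dtx1 differences were 4.74 and 5.50. The second Dtx1 probe set, at 7.5 to 138 over all arrays, did not pass the filter on low signals.

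Hes1 and Nrarp, the 2 other Notch targets, did not pass between the subsets. Hes1, a transcriptional repressor, averaged 504.5 ± 99.1 in 33D1 DCs and 487.3 ± 173 in DEC205 DCs of Flt3L mice, and 1130 ± 271 in 33D1 DCs and 910 ± 93 in DEC205 DCs of WT mice (SD, n = 3 each). The subset differences of Hes1 were 0.09 ± 0.29 (95% interval -0.53 to 0.70, limma adjusted p = 0.889) in Flt3L mice and 0.28 ± 0.29 (95% interval -0.33 to 0.89, limma adjusted p = 0.586) in WT mice. Nrarp, a feedback inhibitor of the Notch complex, was dim, at 100.9 to 438.8 over all arrays. Nrarp averaged 239.9 ± 23 in 33D1 DCs and 190.1 ± 12.2 in DEC205 DCs of Flt3L mice, and 232.1 ± 14 in 33D1 DCs and 143.9 ± 68.1 in DEC205 DCs of WT mice. Its differences were 0.27 ± 0.23 (adjusted p = 0.47) in Flt3L mice and 0.60 ± 0.23 (adjusted p = 0.0694) in WT mice. DEC205 WT array 2, at 222.4, lay among the 33D1 arrays of Nrarp, and without it the WT difference was 0.87 (limma adjusted p = 0.00763). Several dim marker genes, among them Kdr, Emcn, Cldn5 and Stab2, also read highest on that array among the DEC205 WT arrays. Others, such as Egfl7 and Pf4, read lowest there. The part of a shift of low signals on that array in the Nrarp value was not tested. The second Nrarp probe set, at 15.9 to 201.2, did not pass the filter.

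Esam, which encodes an adhesion molecule of endothelial cells and platelets that also marks a CD8-negative DC population, was higher in 33D1 than in DEC205 DCs. Esam in Flt3L mice read 767.1, 775.5 and 606.1 in 33D1 DCs, against 318.1, 284.3 and 288.7 in DEC205 DCs. Esam in WT mice read 2246.7, 2764.5 and 2369.5 in 33D1 DCs, against 461.2, 647.3 and 619.3 in DEC205 DCs. The subsets did not overlap in either kind of mouse, and the 33D1 DCs of WT mice stood above all other arrays of the study. The differences were 1.14 ± 0.20 in Flt3L mice (limma adjusted p = 0.000124) and 2.01 ± 0.20 in WT mice (limma adjusted p = 5.82e-08). A summed signal of 10 endothelial markers was 2315 to 2496 in 33D1 DCs and 1990 to 2288 in DEC205 DCs of Flt3L mice, and 2315 to 2812 in 33D1 DCs and 2730 to 3077 in DEC205 DCs of WT mice. Of the 10 markers, 4 were above the table's median on every array of both 33D1 groups and of DEC205 DCs of Flt3L mice, and 3 in DEC205 DCs of WT mice. Of the 9 endothelial markers tested, 1 passed as higher and 1 as lower in 33D1 DCs in each kind of mouse. The higher one was Pecam1, which encodes an adhesion molecule of endothelium, platelets and leukocytes. Pecam1 averaged 945.5 ± 220 in 33D1 DCs, against 384.4 ± 76.5 in DEC205 DCs, of Flt3L mice (1.19 ± 0.15, limma adjusted p = 3.21e-06), and 1305 ± 40.9 in 33D1 DCs and 876.3 ± 50.1 in DEC205 DCs of WT mice (0.55 ± 0.15, adjusted p = 0.011). Its differences had the sign of those of Esam. The lower one was Vwf, and the endothelial cadherin gene Cdh5 read 16.2 to 193.8 in all DC groups. The part of endothelial cells in the Esam differences was not tested. The summed signal of 6 platelet markers overlapped between the subsets in both kinds of mice.

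**Figure D2:**
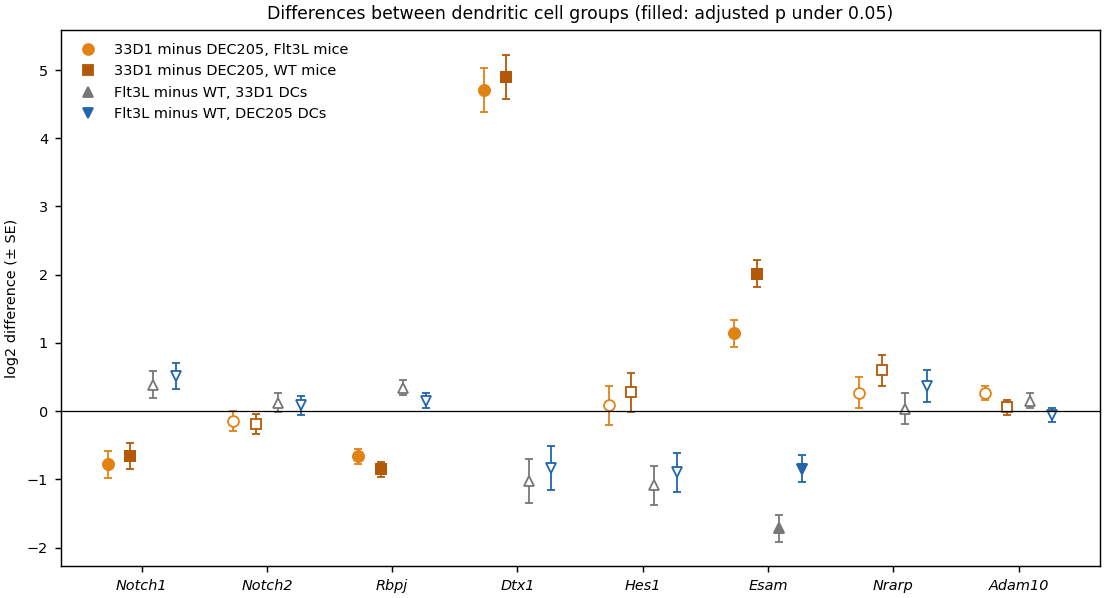
Log2 differences (± SE) of the 8 genes in 4 comparisons among DC groups; filled symbols passed an adjusted p under 0.05. Dtx1 has the largest subset differences (4.71 and 4.90), Esam has the largest difference between Flt3L and WT mice (-1.72 in 33D1 DCs), and the differences of Hes1 between Flt3L and WT mice are negative in both subsets and drawn as open symbols.

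Between Flt3L and WT mice, Esam was the gene of the 8 that passed, and it was lower in Flt3L mice in both subsets. Of the 8 genes 1 passed in 33D1 DCs, where 1.01% of all genes did, and 1 passed in DEC205 DCs, where 2.11% did. An unadjusted limma p under 0.05 was found for 4 of the 8 in 33D1 DCs (Rbpj, Dtx1, Hes1 and Esam), and for 10.4% of all genes. In DEC205 DCs it was found for 4 of the 8 (Notch1, Dtx1, Hes1 and Esam), and for 12.4% of all genes. Rbpj and Notch1 were higher in Flt3L mice there, and the others lower. In 33D1 DCs the Esam signals of Flt3L mice were 606.1 to 775.5, against 2246.7 to 2764.5 in WT mice, with no overlap. The mean in Flt3L mice was 0.291 times that in WT mice, a difference of -1.72 ± 0.20 (limma adjusted p = 9.15e-05), and leaving out any of the 6 arrays kept that call. The summed signal of 7 macrophage markers was 3777 to 4560 in 33D1 DCs of Flt3L mice, against 5025 to 5424 in WT mice, and 0 of the 6 tested passed. Most of that sum was Adgre1, at 3504 ± 328 in Flt3L mice and 4235 ± 396 in WT mice (-0.27 ± 0.25, limma adjusted p = 0.818). The summed signal of 4 plasmacytoid DC markers was 2956 to 4138 in Flt3L mice, against 2090 to 2371 in WT mice, and 1 of the 4, Bst2, passed as higher. Of 4 B cell markers, 1, Fcer2a, passed as higher too, at 480 to 747.1 in Flt3L mice, against 134 to 181.6 in WT mice. The B cell sums overlapped, at 1563 to 1801 in Flt3L mice, against 1709 to 1777 in WT mice. The part of any of these cell types in the Esam result was not tested. Of the 7 macrophage markers, 1 was above the table's median on every array in Flt3L mice, against 3 in WT mice. The summed signal of 5 melanoma markers was 429.6 to 562.4 in Flt3L mice, against 573 to 630.7 in WT mice. The endothelial sum overlapped, at 2315 to 2496 in Flt3L mice, against 2315 to 2812 in WT mice.

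In DEC205 DCs the Esam signals of Flt3L mice were 284.3 to 318.1, against 461.2 to 647.3 in WT mice, also with no overlap. The difference was -0.84 ± 0.20 (limma adjusted p = 0.0266). This call was lost on leaving out any array but DEC205 WT array 1 (adjusted p of 0.0589 to 0.132), and without the pair of mixed arrays it was -0.79 (adjusted p = 0.109). Several marker sums were lower beside it: DEC205 DCs of Flt3L mice had 594.2 to 1079 for 4 B cell markers, against 2370 to 2618 in WT mice, 1004 to 1336 for the 7 macrophage markers, against 1946 to 3661, and 1990 to 2288 for the endothelial markers, against 2730 to 3077. Among these markers Ms4a1 of B cells, Vcam1 and Hmox1 of macrophages and Pecam1 of endothelium passed as lower in Flt3L mice, which is 1 of 4, 2 of 6 and 1 of 9 tested, and 0 passed as higher. The 3 CD8-negative DC markers were lower too, with sums of 133.9 to 240.5 in Flt3L mice, against 403.2 to 939.8 in WT mice. Of these 3 markers, 1, Sirpa, passed as lower and 0 as higher. Sirpa read 134.8, 144.7 and 24.1 in Flt3L mice, against 277.3, 230.8 and 665.9 in WT mice. The part of any of these cells, 33D1 DCs included, in the Esam result was not tested. B cells themselves had Esam signals of 158.5 to 190.1, below every DC array.

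The subset difference of Esam in Flt3L mice minus that in WT mice was -0.88 ± 0.28 on the log2 scale (95% interval -1.47 to -0.28), and this difference of differences did not pass (limma adjusted p = 0.492). In this comparison 0 of the 8 genes passed limma's adjusted threshold, where 0.105% of all genes did. An unadjusted limma p under 0.05 was found for 1 of the 8, Esam, and for 4.78% of all genes. With an offset of 200 in place of 48.6 the Esam difference of differences passed (-0.90, adjusted p = 0.0487).

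Hes1, Dtx1, Rbpj and Adam10 did not pass in 33D1 DCs although the Flt3L and WT arrays of their brightest probe sets did not overlap. Hes1 read 568.4, 390.3 and 554.7 in 33D1 DCs of Flt3L mice, against 1011.2, 1440.4 and 939.9 in WT mice (-1.09 ± 0.29, limma adjusted p = 0.0783). In DEC205 DCs Hes1 read 542.6, 293.1 and 626.3 in Flt3L mice, against 861.7, 1017.2 and 851.0 in WT mice (-0.89 ± 0.29, limma adjusted p = 0.132). Every Flt3L array of Hes1 lay below every WT array of the same subset. Hes1 passed in 33D1 DCs in a fit of those groups alone (adjusted p = 0.0137), and with an offset of 200 it passed in 33D1 DCs (-0.91, adjusted p = 0.0112) and in DEC205 DCs (-0.72, adjusted p = 0.0369).

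Dtx1 in 33D1 DCs was 5519 ± 887 in Flt3L mice and 11250 ± 1090 in WT mice (SD, n = 3 each), a difference of -1.03 ± 0.32 (limma adjusted p = 0.161). That Dtx1 difference passed in a fit of those groups alone (adjusted p = 0.00414), with an offset of 200 (-1.01, adjusted p = 0.045) and without the mixed arrays (adjusted p = 0.0453). In DEC205 DCs the Dtx1 difference was -0.84 ± 0.32 (limma adjusted p = 0.25) with overlapping arrays, -1.30 (adjusted p = 0.0243) without DEC205 WT array 1 and -0.24 (adjusted p = 0.844) without the mixed arrays. Rbpj was 3141 ± 98.4 in 33D1 DCs of Flt3L mice and 2475 ± 262 in those of WT mice, a difference of 0.34 ± 0.11 (limma adjusted p = 0.168), and in DEC205 DCs its difference was 0.16 ± 0.11 (adjusted p = 0.656). Notch1 differed by 0.39 ± 0.19 in 33D1 and 0.51 ± 0.19 in DEC205 DCs, Notch2 by 0.13 ± 0.14 and 0.08 ± 0.14, Nrarp by 0.04 ± 0.23 and 0.36 ± 0.23 and Adam10 by 0.15 ± 0.11 and -0.06 ± 0.11, none of which passed (limma adjusted p of 0.229 to 0.989). The other tested probe sets of these genes did not all share the sign in 33D1 DCs: those of Adam10 gave -0.27 ± 0.13 and -0.65 ± 0.16 (adjusted p of 0.469 and 0.0559), and those of Rbpj gave 0.16 ± 0.12 and -0.15 ± 0.16 (adjusted p of 0.736 and 0.832). These comparisons share their WT and Flt3L arrays with the subset comparisons. The median difference of the 8 genes was 0.08 in 33D1 DCs, against 0 over all genes, and 0.01 in DEC205 DCs, against -0.01.

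Beside lymphocytes of WT mice, Notch1 and Notch2 set T cells apart from both DCs and B cells, Notch2 by its brightest probe set alone. By the brightest probe set of each gene, both T cell groups had higher Notch1 and lower Notch2 signals than every DC and B cell array. Notch1 read 479.5, 457.3 and 505.9 in B cells, 1644.4, 1001.6 and 1483.6 in CD8 T cells and 1393.1, 1705.8 and 1500.8 in CD4 T cells. Notch2 read 8248.4, 8453.9 and 6515.7 in B cells, 1927.3, 1501.4 and 2163.9 in CD8 T cells and 1783.1, 2135.6 and 2023.9 in CD4 T cells. In order of the mean, Notch1 ran from CD4 and CD8 T cells, which overlapped, through B cells and DEC205 DCs of Flt3L mice, which overlapped, to DEC205 DCs of WT mice and both 33D1 groups, each overlapping its neighbour. Notch2 ran from B cells through the 4 DC groups, each overlapping the next, and then with a gap to the T cells.

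In 33D1 DCs of WT mice, 6 of the 8 genes passed against B cells, where 34% of all genes did, and 7 passed against T cells (CD8 and CD4 together, n = 6), where 44.3% did. In DEC205 DCs of WT mice, 6 passed against B cells, where 39% did, and 8 against T cells, where 49.2% did. Notch1 was lower in 33D1 DCs than in B cells (-1.27 ± 0.19, limma adjusted p = 1.56e-05) and T cells (-2.76 ± 0.17, adjusted p = 5.17e-12), and in DEC205 DCs it was lower than in B cells (-0.61 ± 0.19, adjusted p = 0.0148) and T cells (-2.10 ± 0.17, adjusted p = 4.68e-10). The Notch1 call of DEC205 DCs against B cells was lost with median centring (-0.54, adjusted p = 0.0878) and without DEC205 WT array 3 (-0.48, adjusted p = 0.0855) or both mixed arrays (adjusted p = 0.0635). The second Notch1 probe set was also lower than in T cells (-2.71 in 33D1 and -2.08 in DEC205 DCs, adjusted p of 1.03e-06 and 3.18e-05), but against B cells it did not pass (-0.52 in 33D1 and 0.11 in DEC205 DCs, adjusted p of 0.369 and 0.865). Notch2 was higher than in T cells in 33D1 DCs (1.51 ± 0.12, limma adjusted p = 8.92e-10) and DEC205 DCs (1.70 ± 0.12, adjusted p = 9.92e-11) by its brightest probe set alone. The second, dim Notch2 probe set did not pass against T cells in 33D1 DCs (-0.08 ± 0.20, adjusted p = 0.793) or DEC205 DCs (-0.11 ± 0.20, adjusted p = 0.677). Against B cells, Notch2 was lower in 33D1 DCs (-0.47 ± 0.14, adjusted p = 0.0122), a call lost with median centring (adjusted p = 0.0845), without 33D1 WT array 1 (adjusted p = 0.0698) and without B cell array 1 or 2 (adjusted p of 0.0542 and 0.0634), and it did not pass in DEC205 DCs (-0.28 ± 0.14, adjusted p = 0.126), where it passed with quantile normalisation (-0.40, adjusted p = 0.0357) and without B cell array 3 (-0.40, adjusted p = 0.0404).

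Rbpj and Esam were higher in both DC subsets than in lymphocytes. The lowest Rbpj signal of a DC array was 2234.6, against 788.0, 1001.2 and 957.5 in B cells and 970.3 to 1259.4 in T cells. The Rbpj differences were 1.39 ± 0.11 in 33D1 DCs and 2.24 ± 0.11 in DEC205 DCs against B cells, and 1.14 ± 0.10 and 1.99 ± 0.10 against T cells, with limma adjusted p of 1.2e-09 or lower. The other 2 Rbpj probe sets were higher in DCs in all 4 comparisons too. Esam read 158.5, 169.0 and 190.1 in B cells, 167.7, 281.8 and 150.4 in CD8 T cells and 106.8, 168.6 and 185.3 in CD4 T cells. The lymphocyte groups overlapped each other near the table's median, and the lowest DC signal of Esam, 284.3, was just above the highest lymphocyte signal. The Esam differences were 3.50 ± 0.20 in 33D1 DCs and 1.49 ± 0.20 in DEC205 DCs against B cells, and 3.51 ± 0.17 and 1.49 ± 0.17 against T cells, with limma adjusted p of 2.02e-06 or lower.

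Dtx1 was bright in every group but DEC205 DCs. It read 4212.4, 6252.6 and 8383.8 in B cells, 6661.1, 6046.0 and 6907.7 in CD8 T cells and 4744.0, 5752.6 and 5876.7 in CD4 T cells. Dtx1 was lower in DEC205 DCs of WT mice than in B cells (-4.02 ± 0.32, limma adjusted p = 8.95e-10) and T cells (-4.00 ± 0.28, adjusted p = 5.28e-11), and without the mixed arrays these Dtx1 differences were -4.62 and -4.60. In 33D1 DCs of WT mice it was higher than in T cells (0.91 ± 0.28, limma adjusted p = 0.0109) and B cells (0.89 ± 0.32, adjusted p = 0.0378). The Dtx1 call of 33D1 DCs against B cells was lost with median centring, an offset of 16, no filter on low signals or no intensity trend (adjusted p of 0.0542 to 0.0804), and without any of 33D1 WT arrays 1, 2 and 3 or B cell arrays 1 and 2 (adjusted p of 0.0515 to 0.201).

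Hes1 was at its lowest in T cells. It read 1112.9, 1242.1 and 1174.3 in B cells, against 139.9, 122.9 and 121.4 in CD8 T cells and 170.8, 42.6 and 194.9 in CD4 T cells. Hes1 was higher than in T cells in 33D1 DCs (2.75 ± 0.25, limma adjusted p = 4.37e-09) and DEC205 DCs (2.47 ± 0.25, adjusted p = 2.02e-08), and it did not pass against B cells in either (-0.08 ± 0.29 and -0.36 ± 0.29), except in DEC205 DCs in a fit of those groups alone (adjusted p = 0.0495). Nrarp was lower in DEC205 DCs than in B cells (-0.95 ± 0.23, adjusted p = 0.00219) and T cells (-0.97 ± 0.20, adjusted p = 0.000347) and did not pass in 33D1 DCs (-0.35 ± 0.23 and -0.37 ± 0.20). Adam10 was lower in DCs than in lymphocytes, by -0.43 ± 0.11 and -0.49 ± 0.11 in 33D1 and DEC205 DCs against B cells and by -0.31 ± 0.09 and -0.37 ± 0.09 against T cells (limma adjusted p of 0.00859 or lower). Its other 2 tested probe sets were below lymphocytes in all 4 comparisons, with adjusted p of 0.0807 for one against B cells and 0.055 for the other against T cells in 33D1 DCs and past the threshold otherwise. The 4 Adam10 calls were lost with median centring (-0.46, -0.42, -0.20 and -0.16, adjusted p of 0.0863 to 0.48), and the median of all genes was -0.13 for 33D1 DCs and -0.16 for DEC205 DCs against T cells in the scaling used. The Adam10 call of 33D1 DCs against T cells was also lost without 33D1 WT array 1 (adjusted p = 0.0513).

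Between B and T cells, 3 of the 8 genes passed, where 26.9% of all genes did. Notch2 (1.98 ± 0.12, limma adjusted p = 1.38e-11) and Hes1 (2.82 ± 0.25, adjusted p = 4.59e-09) were higher in B cells, and Notch1 (-1.49 ± 0.17, adjusted p = 2.39e-07) was lower. The second Notch1 probe set was lower too (-2.19 ± 0.34, adjusted p = 3.29e-05), and the second Notch2 probe set did not pass (0.36 ± 0.20, adjusted p = 0.223). Rbpj was 915.6 ± 113 in B cells (n = 3) and 1100 ± 127 in T cells (n = 6) and missed the threshold (-0.25 ± 0.10, limma adjusted p = 0.0537); it passed with quantile normalisation (-0.27, adjusted p = 0.0304), an offset of 16 (adjusted p = 0.0485), without B cell array 2 (adjusted p = 0.0397) and without CD4 T cell array 1 (adjusted p = 0.0271). Between CD8 and CD4 T cells, 0 of the 8 genes passed limma's adjusted threshold, where 3.26% of all genes did. An unadjusted limma p under 0.05 was found for 0 of the 8 and for 12.7% of all genes. The largest difference there was 0.33 ± 0.23, for Nrarp.

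Of 59 other Notch pathway genes listed by role, 54 were on the array and 51 were tested, and in Flt3L mice 7 were higher and 8 lower in 33D1 than in DEC205 DCs, where 23.5% of all genes passed. In WT mice 8 were higher and 6 lower, where 23.1% of all genes passed. The median difference of the 51 genes was 0.07 in Flt3L mice, against 0.04 over all genes, and 0.04 in WT mice, against 0.04. By role, the calls in WT mice were 1 of 5 ligands, 1 of 2 other receptors, 3 of 5 glycosylation genes, 2 of 7 cleavage genes, 1 of 6 coactivators, 0 of 7 corepressors, 4 of 10 regulators and 2 of 9 targets. None of the corepressors passed limma's adjusted threshold, and 2 of them, Spen and Tle3, had an unadjusted p under 0.05, as did 31.8% of all genes.

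Among the ligands, Jag1, which encodes Jagged1, was higher in 33D1 DCs. In Flt3L mice it read 886, 711.4 and 615.1 in 33D1 DCs, against 86, 42.4 and 80.7 in DEC205 DCs. In WT mice it read 1241.1, 1280.8 and 1332.4 in 33D1 DCs, against 183.3, 153.7 and 325.9 in DEC205 DCs. The groups were far apart, and every lymphocyte array lay lower still, at 2.5 to 16.8. The Jag1 differences were 2.74 ± 0.24 in Flt3L mice (limma adjusted p = 1.31e-08) and 2.36 ± 0.24 in WT mice (limma adjusted p = 1.3e-07), and without the mixed arrays they were 2.85 and 2.62. Jag1 in Flt3L mice was below WT mice on every array in both subsets, with differences of -0.78 ± 0.24 in 33D1 DCs (adjusted p = 0.161) and -1.16 ± 0.24 in DEC205 DCs (adjusted p = 0.014). The first passed with an offset of 200 (adjusted p = 0.0116) and in a fit of those groups alone (adjusted p = 0.017). The DEC205 call was lost with median centring (adjusted p = 0.07), in a fit of those groups alone (adjusted p = 0.083), without the mixed arrays (-0.89, adjusted p = 0.117), without DEC205 WT array 3 (adjusted p = 0.0907) and without DEC205 Flt3L array 2 (-0.98, adjusted p = 0.102).

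Jag2 averaged 205.7 ± 67.5 in 33D1 DCs and 406.3 ± 93 in DEC205 DCs of Flt3L mice (-0.85 ± 0.30, limma adjusted p = 0.0415), a call lost without the filter on low signals (adjusted p = 0.0649) or the intensity trend (adjusted p = 0.0518), with the replicate number as a block (adjusted p = 0.0515), and without any of 33D1 Flt3L arrays 1 and 2 and DEC205 Flt3L arrays 1 and 3 (adjusted p of 0.0767 to 0.169). In WT mice Jag2 averaged 275.7 ± 37.1 in 33D1 DCs and 418.3 ± 186 in DEC205 DCs (-0.44 ± 0.30, adjusted p = 0.355), which passed without DEC205 WT array 1 (-0.82, adjusted p = 0.0431), while another of its probe sets was lower in 33D1 DCs (-2.06, adjusted p = 2.36e-05). Dll1, Dll4 and Dlk1 did not pass in any comparison among DC groups and read 36.3 to 280.7 in DCs, and Dll3 did not pass the filter on low signals.

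Notch4, a receptor best known from endothelium, ran the other way from Jag1. Notch4 in Flt3L mice read 134, 192.5 and 223.7 in 33D1 DCs, against 3018.7, 3036 and 2677.6 in DEC205 DCs. Notch4 in WT mice read 172, 240.2 and 187.6 in 33D1 DCs, against 2748.8, 2828.7 and 2164.6 in DEC205 DCs. The Notch4 differences were -3.69 ± 0.30 in Flt3L mice (limma adjusted p = 3.82e-09) and -3.40 ± 0.30 in WT mice (limma adjusted p = 1.46e-08). Vwf, another endothelial gene, moved with it, at 164.7 to 191.3 in 33D1 DCs, against 649.3 to 1105.7 in DEC205 DCs, while Cdh5 was at 16.2 to 134.1 in 33D1 DCs, against 131.8 to 193.8 in DEC205 DCs. Pecam1 went the other way and was higher in 33D1 DCs, and Kdr averaged 372.3 ± 98.7 in 33D1 DCs and 187.2 ± 7.94 in DEC205 DCs of Flt3L mice without passing (0.81 ± 0.33, limma adjusted p = 0.083). Of the 9 endothelial markers tested, Vwf was the only one called lower in 33D1 DCs and Pecam1 the only one called higher, in each kind of mouse. The part of endothelial cells in the Notch4 result was not tested. Lymphocytes had Notch4 signals of 7.3 to 109.9.

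**Figure D3:**
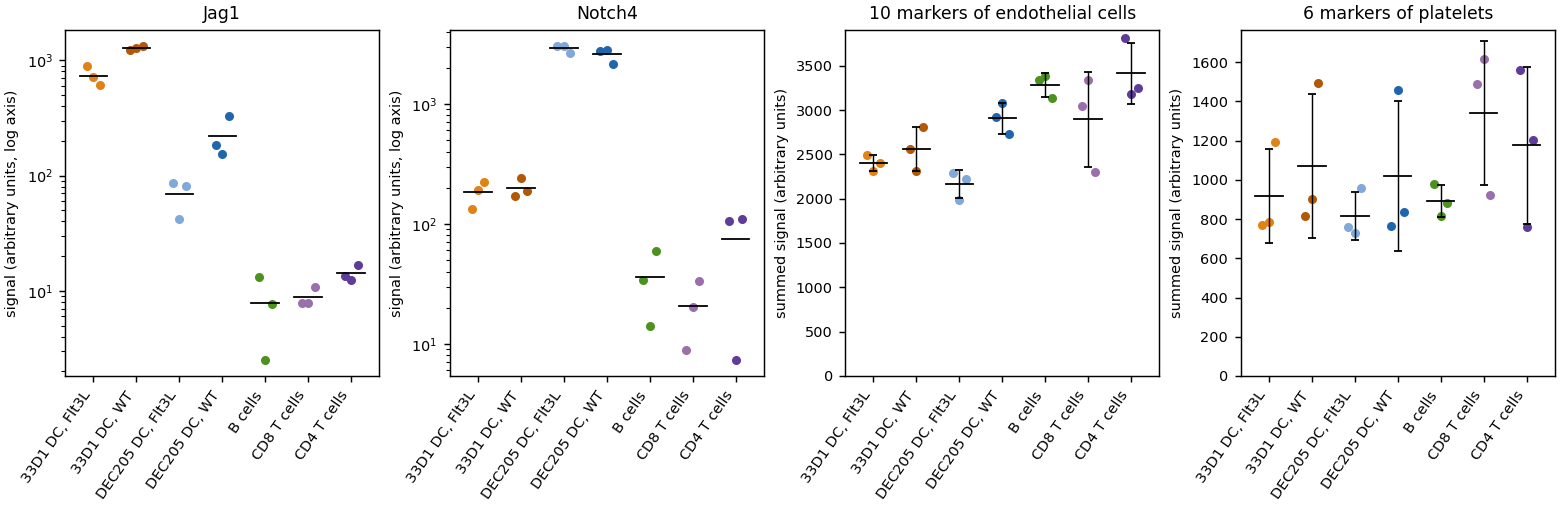
Signals of Jag1 and Notch4 (arbitrary units, log axis) and summed signals of 10 endothelial and 6 platelet markers (linear axis, from 0) on the 21 arrays by group; points are arrays, lines are means of 3 and bars in the marker panels are SD. Jag1 is high in 33D1 DCs and Notch4 in DEC205 DCs, and the endothelial sum runs from 1990 in DEC205 DCs of Flt3L mice to 3809 in CD4 T cells.

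Other pathway genes called with a difference of at least 1 included Ccnd1, a cell cycle gene and Notch target, which averaged 16830 ± 1180 in 33D1 DCs and 7271 ± 689 in DEC205 DCs of Flt3L mice (1.21 ± 0.15), and 16870 ± 1190 in 33D1 DCs and 4383 ± 331 in DEC205 DCs of WT mice (1.93 ± 0.15). Poglut1, which adds glucose to Notch receptors, was lower in 33D1 DCs of WT mice (-1.40 ± 0.15, limma adjusted p = 1.25e-07), and Numb, an inhibitor of Notch, was lower in those of Flt3L mice (-1.16 ± 0.12, adjusted p = 1.49e-07). Each was also called lower in the other kind of mouse. Poglut1 averaged 628.3 in 33D1 and 1179 in DEC205 DCs of Flt3L mice, and Numb 589.2 and 1065 in those of WT mice. Cr2, a complement receptor gene and Notch2 target of marginal zone B cells, averaged 379 ± 19.3 in 33D1 DCs and 125.5 ± 24.2 in DEC205 DCs of WT mice (1.31 ± 0.28, limma adjusted p = 0.00123), far under its 11030 ± 1190 in B cells. The summed signal of 4 B cell markers was 1709 to 1777 in those 33D1 DCs, against 2370 to 2618 in DEC205 DCs, most of it Ms4a1, and 0 of the 4 passed. The marker Fcer2a averaged 150.3 ± 27.1 in 33D1 DCs and 93.7 ± 22.5 in DEC205 DCs, and the part of B cells in the Cr2 result was not tested. The 33D1 arrays of Cr2 lay above the DEC205 arrays in Flt3L mice too, at 157.8 to 229.4 against 106.4 to 116.6, without passing (0.58 ± 0.28, adjusted p = 0.153).

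**Figure D4:**
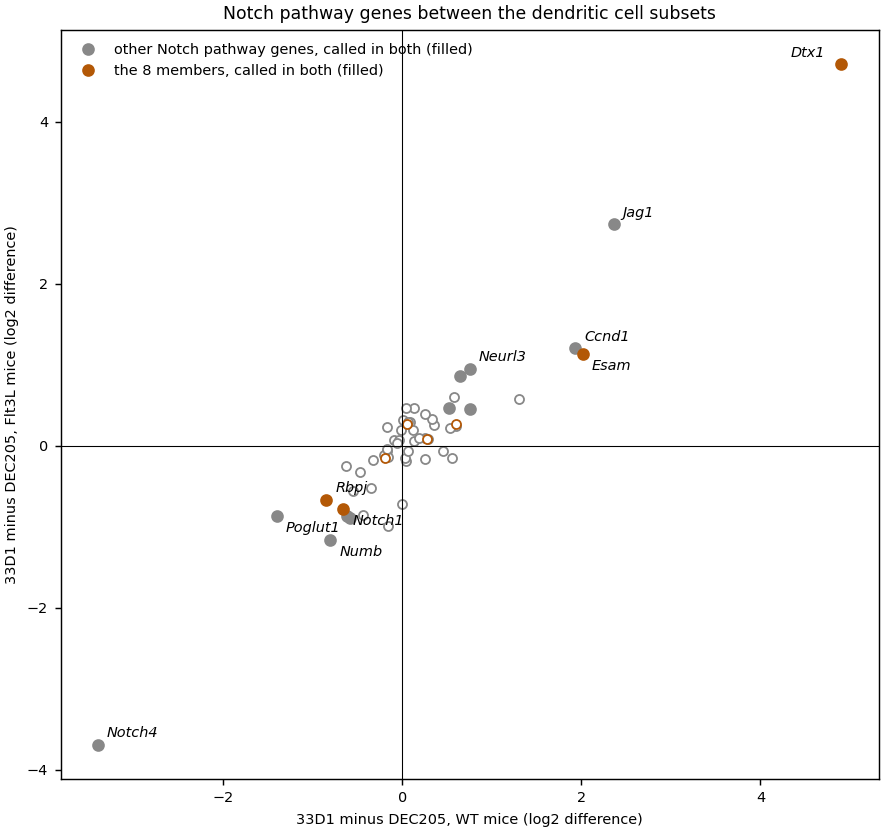
Log2 difference between 33D1 and DEC205 DCs in WT mice (x axis) and in Flt3L mice (y axis) for the 8 genes and 51 other Notch pathway genes; each point is a gene, and filled points passed in both kinds of mice. Dtx1, Jag1, Ccnd1 and Esam lie at the upper right and Notch4 at the lower left, with most genes near the origin; the axes share no arrays.

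Between Flt3L and WT mice, 0 of the 51 other genes passed limma's adjusted threshold in 33D1 DCs, where 1.01% of all genes did. An unadjusted limma p under 0.05 was found there for 4 of the 51 (7.84%), against 10.4% of all genes. In DEC205 DCs 4 passed, beside 1.22% of all genes higher and 0.888% lower, with Myc (1.06 ± 0.24, adjusted p = 0.0222) and Ccnd1 (0.72 ± 0.15, adjusted p = 0.0147) higher and Jag1 and Poglut1 (-0.67 ± 0.15, adjusted p = 0.0147) lower in Flt3L mice. Without the mixed arrays 1 of these 4, Ccnd1, passed, while Myc was at 1.10 (adjusted p = 0.0601), Poglut1 at -0.62 (adjusted p = 0.0814) and Jag1 at the -0.89 given above. The Ccnd1 call was lost with median centring (adjusted p = 0.0626) and without DEC205 Flt3L array 1 or DEC205 WT array 1 or 2 (adjusted p of 0.0561 to 0.0743). The Myc call was lost with median centring (adjusted p = 0.131), without the intensity trend (adjusted p = 0.0522) and without any of DEC205 Flt3L arrays 1 and 2 and DEC205 WT arrays 1 and 2 (adjusted p of 0.0688 to 0.104), and the Poglut1 call with median centring (adjusted p = 0.198) and without any of DEC205 Flt3L arrays 1, 2 and 3 or DEC205 WT arrays 1 and 3 (adjusted p of 0.0527 to 0.0762).

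Genes known to mark the CD8-negative populations with much or little ESAM were set beside Esam. Cd4, which accompanies Esam on these DCs, averaged 1737 ± 131 in 33D1 DCs and 24.1 ± 1.05 in DEC205 DCs of Flt3L mice (4.62 ± 0.30), and 2456 ± 208 in 33D1 DCs and 196.9 ± 180 in DEC205 DCs of WT mice (3.61 ± 0.30). Without the mixed arrays the Cd4 differences were 4.59 and 4.17. In 33D1 DCs, Cd4 was lower on every Flt3L array than on every WT array but did not pass (-0.49 ± 0.30, limma adjusted p = 0.655), beside -1.72 for Esam, and another Cd4 probe set did pass (-1.31, adjusted p = 0.0145). In DEC205 DCs, Cd4 passed as lower in Flt3L mice, at 24.2, 23 and 25.1, against 133.1, 57.7 and 400 in WT mice. That call was lost in a fit of those groups alone (-1.50, limma adjusted p = 0.139). Of 5 measured genes of the population with little ESAM, 0 passed limma's adjusted threshold between Flt3L and WT mice in 33D1 DCs, where 1.01% of all genes did. An unadjusted limma p under 0.05 was found for 1 of the 5, Ccr2, and for 10.4% of all genes. Clec12a of this list, and Clec4a4 of the list for much ESAM, were not measured. In 33D1 DCs the receptor gene Cx3cr1 averaged 611.8 ± 224 in Flt3L mice and 393.2 ± 83.8 in WT mice (0.54 ± 0.28, adjusted p = 0.525), and Ccr2 averaged 439 ± 221 and 151 ± 104 (1.29 ± 0.45, adjusted p = 0.232), with overlapping arrays for both. Csf1r differed there by -0.09 ± 0.25, Csf3r by -0.11 ± 0.32 and Lyz2 by -0.70 ± 0.39. Of these 5, Cx3cr1, Csf1r and Csf3r were higher and Ccr2 and Lyz2 lower in 33D1 than in DEC205 DCs in both kinds of mice.

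The genes whose log2 signals ran most like each of the 8 over the 21 arrays are given by Pearson's r, as a description of arrays that share groups and preparation. Esam ran most like the ion transporter gene Slc12a2 (0.951) and Jag1 (0.945). Dtx1 ran most like Fam107b (0.975) and the cytokine receptor gene Il21r (0.957). Rbpj ran most like Ctbp2 (0.981), Notch2 like Unc93b1 (0.969) and Cd74 (0.969), Notch1 like Sigirr (0.959) and Hes1 like Ncf4 (0.936). Nrarp (LTO1, 0.865) and Adam10 (C1galt1, 0.9) had the weakest best matches. Among the 8 genes themselves the closest pair was Notch2 and Hes1 (0.845), and the most opposed pair was Rbpj and Adam10 (-0.846).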

How the data were processed

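Biotin-labelled cRNA made from 5 ug of total RNA of purified spleen cells was hybridised to 21 Affymetrix mouse arrays, per the labels' protocols. The deposited table holds 1 intensity per probe set and array, and the submitters' processing notes name GCOS and MAS5. Each column has a 2% trimmed mean of 500, and with no counts the precision is set by how many arrays there are. The 8 genes, the lists and the tests were chosen with earlier results of these data known. Genes were named from GEO's platform table, where 34945 of 45101 probe sets have 1 symbol, 932 have several and 9160 have none; 64 probe sets are controls. Probe sets above the table's median of 156.3 on at least 3 arrays were kept, with the brightest one per gene. On log2 of the signal plus 48.6 (the table's 25th percentile), limma 3.58.1 in R 4.3.3 fitted 7 group means (14 residual degrees of freedom) and an intensity trend for 11 contrasts, with p-values adjusted over 13284 genes. It was tested on simulated data. The 95% intervals used limma's SE with the 14 residual degrees of freedom alone, so they are wider than limma's own test implies. Other pathway genes were named where called with an absolute difference of at least 1, smallest adjusted p first, along with all ligands. Genes in role counts and those set beside Esam came from the same lists. For likeness, the 3 genes with the highest Pearson correlation were taken, passing over clone-like names. Alternatives changed the normalisation, the offset, the filter, the probe set rule, the trend, the arrays and the groups in the fit.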

Additional observations from a re-analysis of the deposited data

How the results depend on the processing

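Of 1528 differences of the 8 genes recomputed under alternatives, 1480 kept direction and side of the threshold, 31 lost the call, 17 gained it and 0 reversed; 44 that were not called changed sign. Of 774 such differences of 9 other named genes, 737 kept both, 31 lost the call and 6 gained it. In DEC205 DCs, Flt3L minus WT, the genes of the 8 called were 0 with median centring, 0 without the mixed arrays and 2 with an offset of 200, and the other pathway genes called were 0 with median centring and 1 without the mixed arrays. In 33D1 DCs, Flt3L minus WT, the genes of the 8 called were 3 with an offset of 200, 3 in a fit of those groups alone and 2 without the mixed arrays, and the other pathway genes called were 1 with that offset and 2 in that fit. The difference of differences had 1 with an offset of 200, and 33D1 DCs against B cells had 3 with median centring. The cause was not tested. Without 1 array, the genes of the 8 called were 4 to 4 for the subsets in Flt3L mice, 3 to 5 in WT mice, 0 to 0 for the difference of differences, 1 to 1 and 0 to 2 for Flt3L minus WT in 33D1 and DEC205 DCs, 4 to 6 and 5 to 7 for 33D1 and DEC205 DCs against B cells, 6 to 7 and 8 to 8 against T cells, 3 to 4 between B and T cells and 0 to 0 between CD8 and CD4 T cells. The other pathway genes called were 10 to 13, 11 to 14, 0 to 0, 0 to 0 and 1 to 4 for the first 5 of these. Of all genes, those called moved by over 1.5 times for the difference of differences (14, against 3 with median centring, 8 with an offset of 16, 34 with 200, 9 with every probe set, 6 without the trend, 3 without the mixed arrays and 3 to 14 without 1 array), for Flt3L minus WT in 33D1 DCs (134, against 63 with median centring, 226 with an offset of 200, 87 without the trend, 286 in a fit of those groups alone, 85 without the mixed arrays and 53 to 111 without 1 array), in DEC205 DCs (280, against 91 with median centring and 94 to 215 without 1 array) and for CD8 minus CD4 T cells (433, against 255 with median centring and 219 in a fit of those groups alone). Where 1 array is left out, the fit pools the spread over the groups.

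Replicate numbers recur across groups, and of 63 same-numbered pairs 13, not all, had a correlation of their deviations over 0.1 (median -0.03, range -0.38 to 0.36), so the numbers were not taken to pair the arrays. Of 21 arrays 12, not all, correlated best with their own number, which is a hint from the data, not the design. With the replicate number as a block, the counts of the 8 genes called were within 1.5 times in every comparison, 4 and 4 for the subsets in Flt3L and WT mice and 1 and 1 for Flt3L minus WT in 33D1 and DEC205 DCs, and the genes called for the difference of differences were 8. Of the 8 and the 9 other named genes, 1 call was lost, of Jag2 between the subsets in Flt3L mice (-0.85, adjusted p = 0.0515).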
